A study of Mus musculus with 93 samples.

Results

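The Ebf family of transcription factors comprises 4 mouse genes, Ebf1, Ebf2, Ebf3 and Ebf4. They were taken by gene name from the annotation deposited with the study, and all 4 were measured, among 32747 gene names in all. Expression was measured by RNA sequencing of 85 single cells picked by hand from dissociated olfactory epithelium of C57BL/6 mice, with cDNA primed by oligo(dT) and amplified by PCR. The study followed how olfactory sensory neurons develop. By its label each cell belongs to 1 of 5 stages: Progenitor (11 cells), Precursor (9), Early Immature Neuron (27), Late Immature Neuron (13) or Mature Neuron (25). A further 8 libraries are technical repeats of 8 of the neurons. The labels give no animal, age or treatment, nor whether stages were assigned from the same transcriptomes. A stage therefore counts as 1 sample, stages were compared without p-values, and SDs describe the scatter of single cells. Where 5 values follow each other below, they run in stage order, Progenitor first and Mature Neuron last.

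Early B-cell factors, also called Olf-1/EBF or COE proteins, bind DNA as dimers through a domain that holds a zinc knuckle, and carry a helix-loop-helix motif for pairing. The family was found in parallel as a factor of olfactory neurons and as a factor of B lymphocytes, where EBF1 is needed for lineage commitment. Their palindromic site lies in promoters of genes of mature olfactory neurons, among them those of the odorant transduction cascade, and the zinc finger protein ZFP423 (Roaz in the rat) binds the factors and blocks that activity.

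Levels are given in FPKM, fragments scaled to transcript length and to the mapped fragments of the library. Members were compared with each other on this scale. Whether fragments rise with length in cDNA primed by oligo(dT) was not tested. The exons together cover 9335 bases in Ebf1, 5680 in Ebf2, 5021 in Ebf3 and 3071 in Ebf4. The order of the members, the leading member and the summed level therefore depend on the length scaling. A member was called detected at an FPKM of at least 1. In a transcript of 1 kb, an FPKM of 1 stood for 0.556 to 9.73 fragments in the 85 libraries (median 5.53), and 2648 to 6414 genes were detected per cell. PCR copies are not independent molecules, so fragments are not counts of molecules. The 95% intervals (exact Clopper-Pearson) take the cells of a stage as independent draws and cover counting error only. Scatter between animals, which the labels do not name, is not in them.

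The 4 genes lie on different chromosomes of the mm10 build. Ebf1 (ENSMUSG00000057098.8) spans chr11:44617317-45008091 on the plus strand, Ebf2 (ENSMUSG00000022053.7) spans chr14:67233292-67430918 on the plus strand, Ebf3 (ENSMUSG00000010476.7) spans chr7:137193673-137314445 on the minus strand, and Ebf4 (ENSMUSG00000053552.8) spans chr2:130295169-130370481 on the plus strand. To show how close the members are in sequence, the coding stretch of the zinc knuckle is printed 5′ to 3′ from transcripts of the GRCm38 build, with bases unlike Ebf1 in capitals. In each member the 42 bases run over an exon junction, so the coordinates include an intron.
Ebf1, chr11:44632808-44643425, plus strand: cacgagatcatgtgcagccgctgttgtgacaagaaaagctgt
Ebf2, chr14:67239475-67247035, plus strand: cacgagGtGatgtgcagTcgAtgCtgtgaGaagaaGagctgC
Ebf3, chr7:137307529-137309315, minus strand: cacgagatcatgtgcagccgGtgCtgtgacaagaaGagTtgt
Ebf4, chr2:130308610-130309697, plus strand: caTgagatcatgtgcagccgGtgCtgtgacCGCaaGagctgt
Ebf3 differed from Ebf1 at 4 of the 42 bases, Ebf4 at 7 and Ebf2 at 8. The transcripts of the members shared no stretch of 50 bases with each other (0 of 6030 such stretches of Ebf1, 0 of 5676 of Ebf2, 0 of 5429 of Ebf3 and 0 of 3070 of Ebf4). Among genes overlapping a member on the opposite strand, only Gm10860 shared exon sequence, with Ebf2. The library kit does not mark strand, so reads from the shared bases cannot be told apart. Gm10860 reached an FPKM of 1 in 77 cells, with a highest value of 139.

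Ebf1, Ebf2 and Ebf3 were already present in part of the progenitors and in nearly all precursors, whereas Ebf4 stayed below an FPKM of 1 in all 20 progenitors and precursors. From the Early Immature Neuron stage on, most cells held all 4 members. In each stage Ebf2 had the highest median.

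Ebf2 was detected in 6 of 11, 9 of 9, 26 of 27, 13 of 13 and 25 of 25 cells of the 5 stages. Its median FPKM in stage order was 29.8 (range 0.662 to 328), 130 (2.55 to 489), 222.5 (0.815 to 1109), 131 (38.5 to 477) and 262.4 (66.3 to 1165). The Progenitor cells formed an upper and a lower set with no value between 0.776 and 29.8, and every Late Immature and Mature Neuron cell lay above the lower set.

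Ebf3 was detected in as many cells as Ebf2 in every stage, though not in the same Progenitor cells: D203 held Ebf2 and not Ebf3, and D393 Ebf3 and not Ebf2. Its median FPKM was 1.38 (0.197 to 725), 32.8 (1.66 to 344.9), 150 (0.742 to 665), 104 (38.8 to 163) and 143 (6.42 to 433.6). The highest Ebf3 value of the study came from a Progenitor cell, D172, and the Late Immature Neuron cells were the most even group.

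Ebf1 was detected in 8 of 11, 8 of 9, 26 of 27, 13 of 13 and 25 of 25 cells. Its median FPKM was 5.12 (0.0933 to 182), 8.43 (0.450 to 107), 103 (0.705 to 304), 64.1 (7.02 to 173) and 92.3 (1.17 to 224). Progenitors and precursors mostly held Ebf1 at a low level: 4 of 11, 4 of 9, 25 of 27, 12 of 13 and 21 of 25 cells reached an FPKM of 10. In each stage the range overlapped that of its neighbour.

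Ebf4 was detected in 0 of 11 Progenitor cells and 0 of 9 Precursor cells, which allows shares of up to 28.5% and 33.6%. In the 3 neuron stages it was detected in 22 of 27 cells (81.5%, interval 61.9 to 93.7%), 13 of 13 cells (interval 75.3 to 100%) and 24 of 25 cells (96%, interval 79.6 to 99.9%). Its median FPKM was 0 (0 to 0.668), 0.0452 (0 to 0.474), 47.3 (0 to 261.4), 96.7 (9.40 to 313) and 48.8 (0.437 to 509). Late Immature Neuron cells did not overlap progenitors or precursors in Ebf4, while the other neuron stages did through a few cells. The Early Immature Neuron cells without Ebf4 were D187, D197, D215, D411 and D417, with Ebf2 at 749, 398.5, 448, 218 and 36.6 FPKM, and the Mature Neuron cell without it was D274, with Ebf1 at 221 and Ebf3 at 143 FPKM. D187 had Ebf4 at 56.3 FPKM in its technical repeat.

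**Figure D1:**
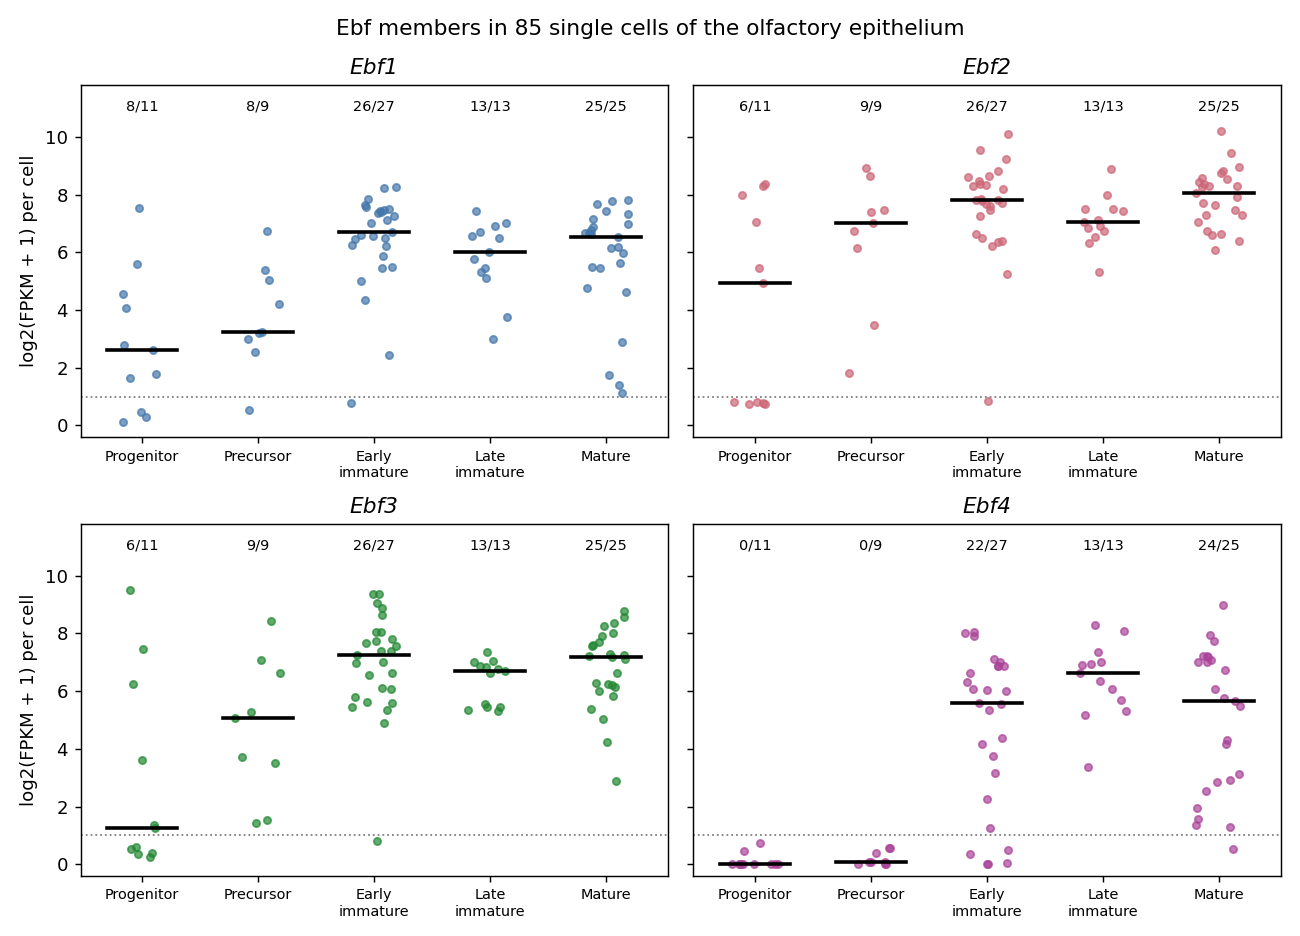
Level of each Ebf member, as log2(FPKM + 1), in every cell of the 5 stages (dots; bar, median; dotted line, an FPKM of 1; numbers, cells detected of all cells). Ebf4 lies at the bottom in all 20 progenitors and precursors and reaches medians of 47.3, 96.7 and 48.8 FPKM in the 3 neuron stages.

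1 cell stood apart within its stage. D357, labelled Early Immature Neuron, had Ebf1 at 0.705, Ebf2 at 0.815, Ebf3 at 0.742 and Ebf4 at 1.41 FPKM, the lowest value of the stage for the first 3 members. Its T cell receptor gene Trbc1 was at 2292 FPKM and its leukocyte gene Ptprc at 99.9 FPKM, the highest of all 85 cells, while Lhx2, a factor of the olfactory lineage, was at 0.860 FPKM and the immature neuron gene Gng8 at 0. The values of Trbc1, Ptprc and Lhx2 go against the label, while Gng8 was detected in only 21 of the 27 cells of the stage. Genes of olfactory neurons were not all absent from D357: Omp was at 115 FPKM, above the stage median of 49.4, Gnal at 7.34 and Gap43 at 2.46. Without D357, Ebf1, Ebf2 and Ebf3 were detected in 100% of the remaining Early Immature Neuron cells. B cell genes were looked at because Ebf1 is a B cell factor: Cd79a, Cd79b and Ms4a1 were below an FPKM of 1 in all 85 cells, and Pax5 reached at most 1.43 FPKM in any cell.

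The mean levels of the members, as log2(FPKM + 1) with the SD over cells, put Ebf2 first in all 5 stages. In Early Immature Neuron cells Ebf2 was at 7.55 ± 1.73, Ebf3 at 6.93 ± 1.77, Ebf1 at 6.40 ± 1.69 and Ebf4 at 4.67 ± 2.74 (n = 27). In Late Immature Neuron cells Ebf2 was at 7.08 ± 0.86, Ebf4 at 6.40 ± 1.31, Ebf3 at 6.33 ± 0.77 and Ebf1 at 5.81 ± 1.30 (n = 13). In Mature Neuron cells Ebf2 was at 7.91 ± 1.001, Ebf3 at 6.79 ± 1.40, Ebf1 at 5.75 ± 1.98 and Ebf4 at 4.94 ± 2.52 (n = 25). In these 3 stages neighbours in the order differed by less than the larger of their SDs. In Progenitor and Precursor cells the step from the next member down to Ebf4 (0.11 ± 0.25 and 0.19 ± 0.24) was larger than either SD.

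All 4 members were at an FPKM of 1 or more together in 0 of 11, 0 of 9, 21 of 27, 13 of 13 and 24 of 25 cells. The trio of Ebf1, Ebf2 and Ebf3 was complete in 5 of 11, 8 of 9, 26 of 27, 13 of 13 and 25 of 25 cells. Most precursors thus held the trio, and most neurons the trio and Ebf4. The only other sets seen were Ebf1 alone, Ebf1 with Ebf2, and Ebf1 with Ebf3, in 1 Progenitor cell each, Ebf2 with Ebf3 in 1 Precursor cell, Ebf4 alone in D357, and no member in 3 Progenitor cells. At a stricter FPKM of 10, all 4 were held by 18 of 27, 11 of 13 and 14 of 25 cells of the 3 neuron stages.

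Ebf2 was most often the member with the highest FPKM of a cell. It led in 4 of 11, 7 of 9, 14 of 27, 7 of 13 and 15 of 25 cells. Ebf3 led in 2, 2, 7, 1 and 5 cells, Ebf1 in 2, 0, 2, 1 and 3, and Ebf4 in 0, 0, 4, 4 and 2. The leading member was seldom alone: its median share of the summed Ebf FPKM was 67.8%, 69.2%, 42.3%, 43.7% and 51.6%. The extremes in Mature Neuron cells were D55, where Ebf2 at 1165 FPKM made up 95.3% of the sum, and D260, where Ebf1 led with 28.6% and the 4 members lay between 158 and 224 FPKM. The summed Ebf level had medians of 46.0, 188, 569, 440 and 676 FPKM.

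**Figure D2:**
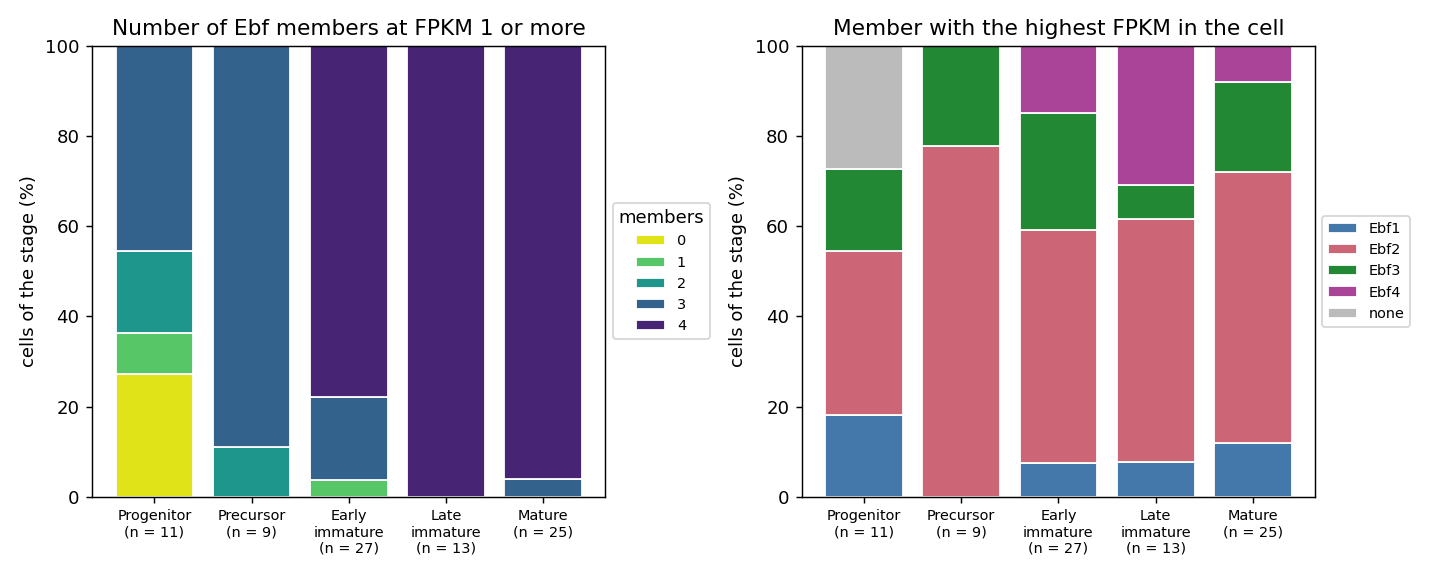
Share of the cells of each stage, in percent, by the number of Ebf members at an FPKM of 1 or more (left) and by the member with the highest FPKM (right; none, no member at 1 or more). All 4 members together appear in the 3 neuron stages, in 21 of 27, 13 of 13 and 24 of 25 cells, and Ebf2 is the most frequent leader in every stage.

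Progenitor cells fell into an upper and a lower set by their Ebf2 level. Ebf2 stood at 328, 317.6, 254.6, 132, 42.4 and 29.8 FPKM in D172, D170, D203, D337, D330 and D169, and at 0.662 to 0.776 FPKM in D175, D184, D393, D189 and D174. Ebf3 was at 725 FPKM in D172, 173 in D337, 74.4 in D170 and 11.1 in D169, but at 0.197 in D203, where Ebf2 was high. Ebf1 was at 2.16 to 182 FPKM in the 6 cells high in Ebf2 and at 0.0933 to 5.93 FPKM in the 5 cells low in it. Ebf3 and Ebf1 thus varied widely among the progenitors that held Ebf2.

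Sox2, a factor of stem and progenitor cells, was at 0 to 201 FPKM in the 6 cells high in Ebf2 and at 47.4 to 254.7 FPKM in the 5 cells low in it. The Sox2 ranges overlapped through D169. Neurod1, a bHLH factor of the step before neuronal differentiation, was at 84.6 to 381 FPKM in the cells high in Ebf2, against 0.492 to 20.5 FPKM in the cells low in it, without overlap. Over the 11 Progenitor cells, Ebf2 and Sox2 ran in opposite directions (Pearson r = -0.75, Spearman rho = -0.73), whereas Ebf2 ran with Neurod1 (r = 0.93, rho = 0.80) and with Lhx2 (r = 0.88, rho = 0.87). These values describe 11 cells in an upper and a lower set, and stand without a test. Mki67, a gene of dividing cells, was at 0 to 397 FPKM in the 6 cells high in Ebf2, with 397 FPKM in D170, and at 11.1 to 91.6 FPKM in the 5 cells low in Ebf2.

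Within the Precursor cells Ebf2 was at 489, 397.7, 177, 168.6, 130, 107, 70.2, 10.1 and 2.55 FPKM in D398, D179, D195, D242, D345, D319, D374, D383 and D178. Neurod1 was at 17.6 to 327 FPKM in all 9. In these cells Ebf1 and Ebf3 ran together (r = 0.88, rho = 0.87), as did Ebf1 and Ebf2 (r = 0.78, rho = 0.80), with D398 highest in all 3.

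S100a8 and S100a9, which are abundant in neutrophils, were at 100 FPKM or more in 8 of 11 Progenitor cells and in the Precursor cell D179. The 8 Progenitor cells were 4 of the 6 high in Ebf2 and 4 of the 5 low in it, and over the 11 cells S100a9 had r = 0.01 but rho = 0.37 with Ebf2. Lyz2, a lysozyme gene of the same blood and immune list, was at 4.06 to 13.7 FPKM in these 8 cells, at 6.08 FPKM in D179 and at 0 in the other 3 Progenitor cells, with r = 0.16 and rho = 0.50 with Ebf2. Ptprc and Cd74, also of that list, were below 1 FPKM in all 20 progenitors and precursors. The part of these genes in the Ebf2 levels was not tested. These 8 Progenitor cells are also the 8 numbered D168 to D205, so within this stage the 2 features cannot be told apart. The Precursor cells D178 and D195, also of that number range, had S100a8 and S100a9 at 0. The other 3 Progenitor cells, D330, D337 and D393, also held both Ebf2 states, at 42.4, 132 and 0.724 FPKM.

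**Figure D3:**
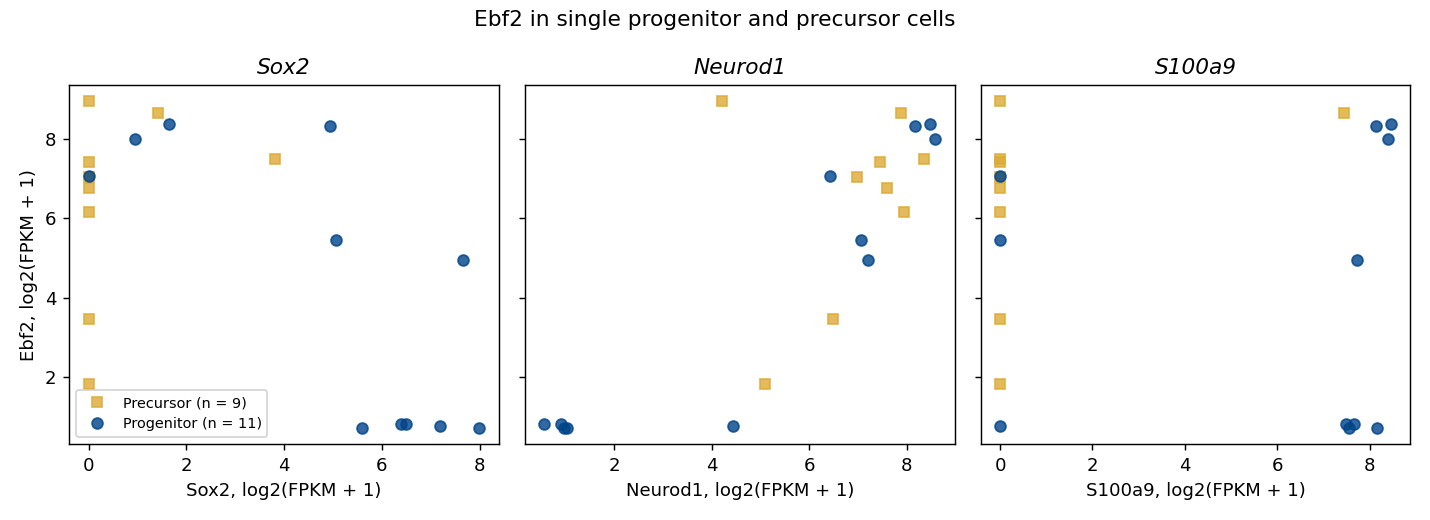
Ebf2 level of each Precursor (squares, n = 9) and Progenitor cell (circles, n = 11) against Sox2, Neurod1 and S100a9, all as log2(FPKM + 1). The 5 Progenitor cells at the bottom, 0.662 to 0.776 FPKM of Ebf2, lie toward the right for Sox2 (47.4 to 254.7 FPKM) and at the left for Neurod1, and both Ebf2 states occur at low and at high S100a9.

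Stages were compared by the difference of mean log2(FPKM + 1), later minus earlier. A gene entered a comparison where 1 stage or both had it in 50% or more of their cells, and a difference of 1 log2 unit or more counted as higher or lower.

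In Precursor relative to Progenitor cells, Ebf2 was higher by 2.23 and Ebf3 by 1.88, Ebf1 differed by 0.90, and Ebf4 was not compared because it was not detected in either stage. That is 2 of 3 compared members past 1 log2 unit, where 20.1% of 4321 genes were higher and 21.6% lower by as much. The means were 6.41 ± 2.34 in Precursor and 4.18 ± 3.43 in Progenitor cells for Ebf2, and 4.74 ± 2.42 and 2.87 ± 3.34 for Ebf3, so each difference was smaller than the SD over cells. Without the 9 cells high in S100a8 and S100a9, which leaves 3 Progenitor cells, the differences were 1.70 for Ebf2, 1.16 for Ebf3 and -0.44 for Ebf1, and within the cells numbered D316 to D434 they were 2.04, 1.802 and -0.05. The Ebf1 difference passed 1 log2 unit when D172 (1.07), D170 (1.37), D330 (1.02), D337 (1.17), D374 (1.05) or D178 (1.30) was left out, and was 0.53 without D398. The summed level of 7 sustentacular cell genes had a median of 1.84 FPKM in Precursor and 162 FPKM in Progenitor cells, and its part in these differences was not tested.

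In Early Immature Neuron relative to Precursor cells all 4 members were higher, where 22% of 4006 genes were higher and 28% lower by at least 1 log2 unit. Ebf4 was at 4.67 in Early Immature Neuron and 0.19 in Precursor cells, a difference of 4.48, and 11 of the 4006 genes were higher by more. Ebf4 was detected in 0 of 9 Precursor cells, so it entered only through the Early Immature Neuron cells, where it is higher. Ebf1 was higher by 2.64 (6.40 and 3.76), Ebf3 by 2.19 (6.93 and 4.74) and Ebf2 by 1.14 (7.55 and 6.41). The differences of Ebf4, Ebf1 and Ebf3 were larger than the pooled SD over cells (1.94, 1.76 and 2.12), and that of Ebf2 was not (2.05). Without D357 the differences were 4.61, 2.86, 2.42 and 1.40 for Ebf4, Ebf1, Ebf3 and Ebf2. The Ebf2 difference was 0.57 without D178 and 0.77 without D383, and 0.77 within the cells numbered D316 to D434, where Ebf4, Ebf1 and Ebf3 differed by 5.31, 2.54 and 1.51.

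In Late relative to Early Immature Neuron cells, Ebf4 was the only member past 1 log2 unit, at 6.40 and 4.67, a difference of 1.73. In this pair 32.5% of 4144 genes were higher by at least 1, so the Ebf4 step was not rare, and it was smaller than the pooled SD of 2.15. With the technical repeat in place of the first library for the 8 repeated neurons it was 0.96, and within the cells numbered D316 to D434 it was 1.24. Ebf1, Ebf3 and Ebf2 differed by -0.59, -0.60 and -0.47, where the median of all compared genes was 0.41 and 16% were lower by at least 1. Ebf1 passed that size within the cells numbered D316 to D434 (-1.17).

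In Mature relative to Late Immature Neuron cells, Ebf4 was lower by at least 1 log2 unit, at 4.94 and 6.40, a difference of -1.46, as were 32.7% of 3835 genes. Ebf2 differed by 0.83, Ebf3 by 0.46 and Ebf1 by -0.06, where the median of all compared genes was -0.58 and 4.54% were higher by at least 1. The Ebf4 difference was -0.85 with the technical repeats in place of the first libraries and -0.93 within the cells numbered D316 to D434. The mitochondrial share of the summed FPKM had a median of 67.0% in Mature and 55.2% in Late Immature Neuron cells, and the summed sustentacular genes had medians of 318.3 and 15.6 FPKM. The part of the sustentacular genes in the differences was not tested. When FPKM were scaled to the sum over nuclear genes, the median of all genes moved to -1.04, 0.93% were higher and 51.7% lower by at least 1, and the members differed by 0.12 (Ebf2), -0.23 (Ebf3), -0.68 (Ebf1) and -2.01 (Ebf4). The sign of the Ebf3 difference thus turned with the scaling, while relative to the median gene Ebf1, Ebf2 and Ebf3 stayed higher and Ebf4 lower under both.

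Over the whole course, in Mature Neuron relative to Progenitor cells, Ebf4 was higher by 4.84, Ebf3 by 3.92, Ebf2 by 3.73 and Ebf1 by 2.89, where 25.2% of 4467 genes were higher and 46.3% lower by at least 1 and the median of all was -0.81. Each of these was larger than its pooled SD over cells (1.79, 2.56, 2.52 and 2.18). Ebf4 was detected in 0 of 11 Progenitor cells, so it entered only through the Mature Neuron cells, where it is higher. Without the 9 cells high in S100a8 and S100a9 the differences of the members, in the same order, were 4.55, 3.44, 3.48 and 1.60. The Ebf1 difference also shrank, to 1.17, within the cells numbered D316 to D434, whose 3 Progenitor cells held Ebf1 at 5.93 to 46.9 FPKM.

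The technical spread of a level in 1 cell was measured by the 8 technical repeats. The labels do not give the step at which a repeat starts. Error from steps shared by both libraries of a cell is therefore not included. Ebf1, Ebf2 and Ebf3 came out alike: the repeat lay within 1 log2 unit of the first library in 6, 6 and 7 of 8 cells, and the technical SD, on the log2 scale, was 0.53, 0.91 and 0.45. Ebf4 did so in 0 of 8 cells, with a technical SD of 2.31, and was higher in the repeat in 6 of 8. Over 1536 genes at an FPKM of 1 or more in every pair, the median technical SD was 2.24, and among genes of like mean level (within 0.5 log2) a smaller SD than that of the member was found for 3 of 137 for Ebf1, 25 of 121 for Ebf2 and 1 of 140 for Ebf3, while for Ebf4 the median SD of such genes was 2.43. Detection was nevertheless the same in 31 of 32 comparisons, the exception being Ebf4 in D187 at 56.3 FPKM in the repeat and 0.283 in the first library. D251 had Ebf4 at 74.3 FPKM in the repeat and 6.59 in the first library, and D250 at 1.66 in the repeat and 35.3 in the first library. The leading member was the same in 6 of 8 cells and differed in D233 and D244. The technical SD of Ebf4 was close to its SD over Early Immature Neuron (2.74) and Mature Neuron cells (2.52) and above that over Late Immature Neuron cells (1.31), whereas the technical SDs of Ebf1 and Ebf3 were below their SDs over cells in every stage. The technical SD of Ebf2 was above its SD over Late Immature Neuron cells (0.86) and close to that over Mature Neuron cells (1.001).

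**Figure D4:**
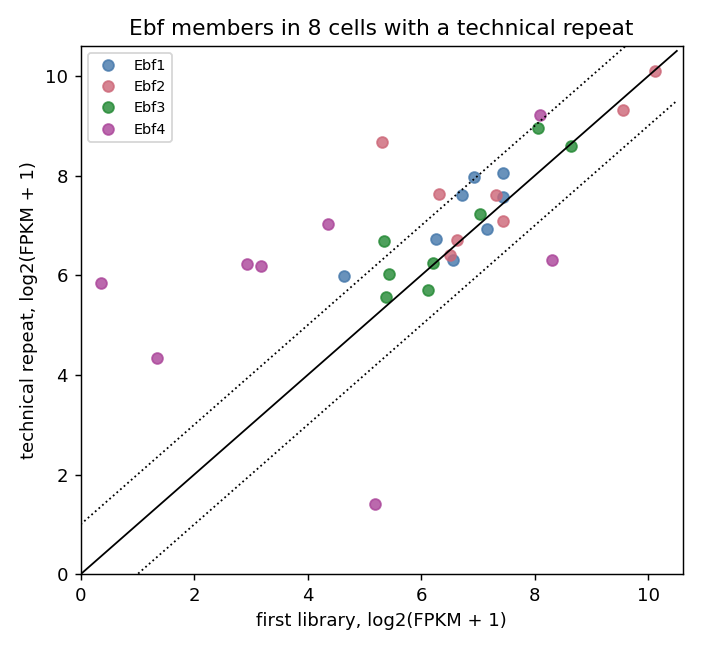
Level of each Ebf member in the technical repeat (vertical) against the first library (horizontal) of 8 neurons, as log2(FPKM + 1), with the line of equality and dotted lines at 1 log2 unit from it. Ebf4 lies outside the dotted lines in all 8 cells, and Ebf1, Ebf2 and Ebf3 lie inside them in 6, 6 and 7 cells.

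Across the 85 cells r between members was positive in all pairs, highest for Ebf2 with Ebf3 (r = 0.73, rho = 0.55), then Ebf1 with Ebf2 (r = 0.66, rho = 0.47) and Ebf1 with Ebf3 (r = 0.63, rho = 0.40). Ebf4 had r = 0.48 (rho = 0.44) with Ebf1, 0.38 (0.22) with Ebf3 and 0.33 (0.14) with Ebf2. The cells span stages that differ in all members. Over the 65 cells of the 3 neuron stages Ebf2 with Ebf3 had r = 0.50 (rho = 0.38). Ebf1 had r = 0.41 (rho = 0.26) with Ebf2 and only r = 0.23 (rho = 0.10) with Ebf3. Ebf4 had r = 0.20 (rho = 0.18) with Ebf1 and r = -0.01 with either Ebf2 or Ebf3 (rho = -0.15 and -0.14). These cells include D357, in which Ebf1, Ebf2 and Ebf3 were below an FPKM of 1. In the 13 Late Immature Neuron cells Ebf4 ran against Ebf3 (r = -0.67, rho = -0.76) and against Ebf2 (r = -0.59, rho = -0.65). There D233 and D230 had the highest Ebf4, 313 and 272 FPKM, with Ebf2 at 38.5 and 78.5 FPKM, and D205 had the lowest Ebf4, 9.40 FPKM, with Ebf2 at 250 FPKM. In the technical repeat of D233, however, Ebf4 was at 78.3 and Ebf2 at 407 FPKM, so this order was not the same in both libraries of that cell. D230 also held Cbr2, a sustentacular cell gene, at 3764 FPKM, the highest of all 85 cells. In the 25 Mature Neuron cells r lay between -0.25 and 0.32 for all 6 pairs.

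Among 5964 genes at an FPKM of 1 or more in at least 20 cells, Ebf1, Ebf2 and Ebf3 were among the genes most alike to each other by Pearson r over the 85 cells. For Ebf1 the closest were Ebf2 (r = 0.66), Prrc2b (0.63), Ebf3 (0.63), Atf5 (0.59), a stress-response factor of olfactory neurons, and Fstl5 (0.57). For Ebf2 they were Ebf3 (0.73), Fstl5 (0.68), the microtubule protein gene Map1b (0.67), Ebf1 (0.66) and the tubulin gene Tuba1a (0.61). For Ebf3 they were Ebf2 (0.73), Fstl5 (0.71), Cystm1 (0.63), Ebf1 (0.63) and Atf5 (0.60). Among the closest to Ebf4 were Flrt1 (0.72), the G protein beta gene Gnb1 (0.67), the cyclic nucleotide gated channel gene Cnga2 (0.65) and Cystm1 (0.65), with Ebf1, Ebf3 and Ebf2 only at ranks 123, 301 and 487. Over the 65 neurons alone Ebf4 had r = 0.41 with Flrt1 and 0.32 with Cnga2, and Ebf1 had r = -0.03 with Fstl5.

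Genes whose promoters are known for Olf/Ebf sites were low in the stages where Ebf1, Ebf2 and Ebf3 were first detected. Omp, the marker of mature olfactory neurons, had median FPKM of 0, 0, 49.4, 4584 and 6257. Gnal, the olfactory G protein alpha subunit, had 0.0381, 1.61, 59.8, 389 and 604. Adcy3, the adenylyl cyclase of transduction, had 0, 0.0674, 1.51, 60.6 and 89.9, and Cnga2, the channel subunit, had 0, 0.0375, 58.6, 483 and 665. All 4 were thus still low in the precursors, where Ebf2 had a median of 130 FPKM, and highest in Mature Neuron cells.

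In Early Immature Neuron relative to Precursor cells 4 of 4 of these genes were higher (median 3.34, with all compared genes at -0.26). Of them 3 were higher by at least 1 log2 unit, against 22% of all compared genes. Omp, Adcy3 and Cnga2 were detected in 3, 2 and 3 of 9 Precursor cells. They entered only through the Early Immature Neuron cells, where they are higher, so the filter itself favoured this direction. In that pair Ebf4, Ebf1, Ebf3 and Ebf2 were higher by 4.48, 2.64, 2.19 and 1.14. In Late relative to Early Immature Neuron cells 4 of 4 were higher by at least 1 (median 4.22, with all compared genes at 0.41), while Ebf1, Ebf2 and Ebf3 differed by -0.60 to -0.47 and Ebf4 by 1.73. The part of any member in these differences was not tested. The longer list of 14 mature neuron genes, which includes these 4, had 14 of 14 higher by at least 1 there (median 3.77), against 32.5% of all compared genes. Cnga4, Cngb1 and Slc24a4 entered only through the Late Immature Neuron cells, being detected in 11, 11 and 2 of 27 Early ones. The largest difference was that of Omp, at 12.37 in Late and 5.94 in Early Immature Neuron cells, followed by Stoml3 (11.90 and 5.62), Cnga4 (7.84 and 2.16) and Adcy3 (6.18 and 1.77). In Mature relative to Late Immature Neuron cells 11 were higher and 3 lower, 1 of them, Pde4a, higher by at least 1, against 4.54% of all compared genes higher and 32.7% lower by as much. The median of the list there was 0.34 as deposited but -0.35 when scaled to nuclear genes, and that of the 4 site genes 0.49 and -0.21, so the direction depended on the scaling. In the same stages the 12 immature neuron genes went the other way: in Late relative to Early Immature Neuron cells 9 of 10 compared were lower, 8 by at least 1 (median -2.79), where 16% of all compared genes were lower by as much, led by Gap43, a growth cone gene (1.64 and 7.54), and Stmn1 (4.59 and 10.30).

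**Figure D5:**
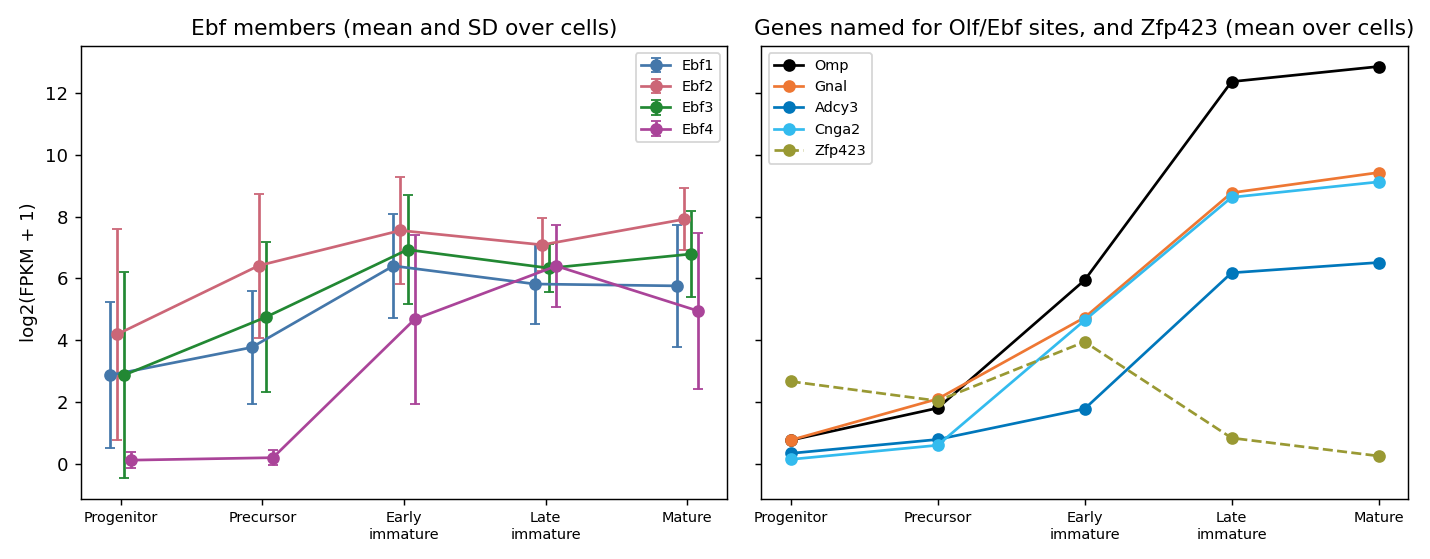
Mean log2(FPKM + 1) over the cells of each stage for the 4 Ebf members (left, bars give the SD over cells) and for Omp, Gnal, Adcy3, Cnga2 and Zfp423 (right). Ebf1, Ebf2 and Ebf3 are near their highest mean in Early Immature Neuron cells, where Omp is at 5.94 against 12.86 in Mature Neuron cells.

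Zfp423, the zinc finger partner, was detected in 6 of 11, 5 of 9, 21 of 27, 2 of 13 and 2 of 25 cells. Its median FPKM was 6.45, 2.69, 14.9, 0.0252 and 0, and its highest value was 250 in the Early Immature Neuron cell D331, against 6.38 in any Mature Neuron cell. In Early Immature Neuron relative to Precursor cells it was higher by 1.91 (3.94 and 2.03), and in Late relative to Early Immature Neuron cells lower by 3.12 (0.83 and 3.94). The site genes were higher in both pairs. Within the 27 Early Immature Neuron cells Zfp423 had r = -0.10 with Ebf4 and 0.21, 0.26 and 0.31 with Ebf1, Ebf2 and Ebf3. Without D357 these values were -0.19, 0.008, 0.03 and 0.13. The related gene Zfp521 was listed at 0 in all 85 cells. Of the factors that act with Ebf proteins at receptor enhancers, Lhx2 and Emx2 were detected in 26 and 25 of 27 Early Immature Neuron cells, with medians of 145 and 137 FPKM, and Ldb1 in 4 of 27.

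Over the 27 Early Immature Neuron cells Ebf4 had r = 0.47 (rho = 0.45) with Cnga2 and r = 0.45 (rho = 0.51) with Gnal, but r = 0.16 (rho = 0.22) with Omp. With Adcy3 it had r = 0.31, and with Gap43, a gene of the immature list, r = 0.34. In Late Immature and Mature Neuron cells Ebf4 had r = -0.12 and 0.11 with Cnga2. Ebf2 had r = -0.12 with Cnga2 and -0.14 with Omp, and Ebf3 had r = -0.22 and -0.19. Without D357 the values with Cnga2 were 0.45 for Ebf4, -0.37 for Ebf2 and -0.45 for Ebf3. Ebf3 and Ebf2 instead ran with Lhx2 (r = 0.72 and 0.58, and 0.60 and 0.36 without D357), for which Ebf4 had r = 0.05. In Late Immature and Mature Neuron cells r with Lhx2 was 0.14 and 0.02 for Ebf3 and 0.32 and 0.11 for Ebf2. Among the Early Immature Neuron cells D425 had the highest Ebf4, 261.4 FPKM, and the highest summed level of the 4 site genes, 7121 FPKM. Yet D215, with Ebf4 at 0, had Omp at 4143 FPKM. Against the authors' deposited pseudotime score, which was given for 25 of these cells, Ebf4 had r = 0.36 (rho = 0.38) and Ebf2 r = -0.35 (rho = -0.44), with Omp at 0.49 (rho = 0.60). Over 63 neurons the members had weak relations to the score, from r = -0.24 for Ebf3 to 0.19 for Ebf4, where Omp had 0.77 and Gap43 -0.64. The technical SD of Ebf4 given above limits how closely any such value can be known.

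Promoter sequence was searched for the core of the Olf/Ebf site, CCCNNGGG, which reads the same on both strands, in windows from 250 bases before to 50 after RefSeq gene starts (GRCm38.p6). Of the 14 mature neuron genes 11 had a window, and 8 of these held the core, against 15.4% of 27025 genes. Genes differ in their number of windows: counted by window, the list had the core in 8 of 19, against 13.7% of 32851 windows, and 15.8% of 7716 windows of like GC content. The longer form TCCCNNGGGA, which holds the core, was in 0 of the 11 genes and in 1.06% of all. The other lists with at least 6 genes were lower, with 2 of 7 immature neuron genes, 2 of 7 progenitor and precursor genes, 1 of 6 sustentacular genes and 1 of 6 blood and immune genes, while of the shorter lists 2 of 3 glial genes and 2 of 3 receptor enhancer factors held it. Among the genes named above for Olf/Ebf sites, only Cnga2 and Adcy3 had a window. Cnga2 held the core, and Adcy3, with 2 windows, did not. A match of letters describes the window and is not a bound site. Segments around the core are printed for 4 mature neuron genes with different middle bases and for Ebf3, with the core in capitals, 5′ to 3′ on the strand of the gene.
Cnga2, chrX:71991772-71991801, plus strand: caagggagagtCCCTTGGGgagcttgggag
Ano2, chr6:125711110-125711139, plus strand: caagggaacacCCCGAGGGatggaggcagg
Slc24a4, chr12:102128607-102128636, plus strand: ctgggcgagcgCCCTAGGGgaggtgtacac
Rtp2, chr16:23930978-23931007, minus strand: acctccgtcagCCCATGGGttggatctcac
Ebf3, chr7:137314448-137314477, minus strand: acagcgccgctCCCGGGGGcttcgagtttt
Cnga2, the gene of this group most alike to Ebf4 over cells, had the core 62 bases before its start. Of the 3 Ebf members with a window (Ebf1, Ebf3 and Ebf4), Ebf3 held the core, 17 bases before its start. Ebf4, the member below an FPKM of 1 in all progenitors and precursors, had no core in its window. This window starts at position 130295689, inside the span of Ebf4 in the deposited annotation, which begins at 130295169. Sequence before that earlier start was not searched. The window is printed whole because Ebf4 had the largest difference between precursors and neurons of the 4 members.
Ebf4, chr2:130295689-130295988, plus strand: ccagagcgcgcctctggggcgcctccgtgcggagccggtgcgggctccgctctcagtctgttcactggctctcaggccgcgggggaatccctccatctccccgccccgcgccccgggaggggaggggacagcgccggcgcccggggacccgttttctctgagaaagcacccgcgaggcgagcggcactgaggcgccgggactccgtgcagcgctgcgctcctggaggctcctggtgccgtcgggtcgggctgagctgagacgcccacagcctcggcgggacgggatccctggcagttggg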

How the data were processed

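Single cells were sequenced after oligo(dT)-primed cDNA amplification by PCR, with a library kit that does not mark strand. Per the submitters' processing notes, Cufflinks 2.2.1 and TopHat2 2.0.14 were used with the mm10 build, beside CASAVA 1.8.2, cutadapt 1.2.1 and Trim Galore. The authors deposited FPKM values for 32975 annotation entries (32747 gene names) in 93 libraries, and no counts. They also deposited a pseudotime score for 64 cells, whose making is not given in the sources used here. Coordinates came from the genomic positions of the annotation they deposited.

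The first library of each of the 85 cells was used, and the 8 technical repeats served to measure technical spread. Where a name had several entries, the highest FPKM was taken. Levels were log2(FPKM + 1), detection was an FPKM of 1, genes were compared where detected in 50% of cells of either stage, and a difference of 1 log2 unit was called. FPKM hide depth, so the fragments behind an FPKM of 1 were recovered from the steps of low values of 2282 single-exon genes (tolerance 5%). No pair of libraries held identical values. Mitochondrial genes took 10.3 to 92.0% of the summed FPKM of a cell (median 50.5%), so nuclear genes were also rescaled alone. The procedure was tested on simulated data. Python 3.11.15, numpy 2.4.6, scipy 1.17.1, pandas 2.3.3 and matplotlib 3.10.9 were used.

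The members, lists and comparisons were chosen with earlier results of these data known. Genes named beyond the members were those of the lists, the 5 genes most alike to each member, and genes that mark cells standing apart. Some items of these lists are not reported here. Alternatives covered the detection level, the pseudocount, the gene filter, the scaling, the number range of the cells, the technical repeats, and leaving out cells. Promoter windows came from RefSeq (GRCm38.p6); Ebf2, Omp, Gnal and Rtp1 had none there.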

Additional observations from a re-analysis of the deposited data

How the results depend on the processing

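Of 903 values recomputed for 85 results, 839 stayed within the spread between cells or the counting interval, 62 moved and 2 reversed. A difference or list median counted as reversed only where it was at least 1 log2 unit as reported. Smaller differences that changed sign within the spread counted as staying. Ebf1 in Precursor minus Progenitor cells was such a case, at 0.90 as reported and -0.44 without the 9 cells high in S100a8 and S100a9. With detection at an FPKM of 0.1, 100% of Early Immature Neuron cells held Ebf1, Ebf2 and Ebf3, 100% of Mature Neuron cells held Ebf4 and all 4 members, 100% of Precursor cells held Ebf1 and 100% of Progenitor cells held Ebf2 and Ebf3. With detection at 10, the shares were 84% (Ebf1), 64% (Ebf4) and 56% (all 4) of Mature Neuron cells, and Ebf1 was in 44.4% of Precursor and 36.4% of Progenitor cells. Where detection also asked for 1% of the highest value of the gene, Ebf4 was in 76% and all 4 in 68% of Mature Neuron cells. With a pseudocount of 0.1, Ebf4 differed by 6.49 (Early Immature Neuron minus Precursor), 7.61 (Mature Neuron minus Progenitor) and 0.50 (Precursor minus Progenitor), with means of -2.35 in Precursor and -2.85 in Progenitor cells. The medians of the mature neuron list were then 4.31, 9.86 and 2.21 in those 3 pairs, and that of the site genes was 11.4 (Mature Neuron minus Progenitor). With a pseudocount of 10, Ebf4 differed by 2.24 and 2.35 in the first 2 pairs, with means of 3.34 in both early stages, the mature list had medians of 4.98 (Mature Neuron minus Progenitor) and 0.46 (Precursor minus Progenitor), and the site genes 2.95 (Late minus Early Immature Neuron) and 5.90 (Mature Neuron minus Progenitor). Scaled to nuclear genes, the medians of Mature minus Late Immature Neuron were -0.35 (mature list) and -0.21 (site genes). Without the filter on low genes the mature list had 0.45 (Precursor minus Progenitor). Within the cells numbered D316 to D434, that median reversed to -1.63, the site genes had -0.067 (Mature minus Late Immature Neuron), Ebf4 had -0.36 (Precursor minus Progenitor) and a Progenitor mean of 0.40, and shares of 100% were found for Ebf4 and all 4 members in Mature Neuron, Ebf1 in Precursor, and Ebf1 and Ebf3 in Progenitor cells. With the technical repeats in place of first libraries the site genes had 0.31 (Mature minus Late Immature Neuron). The next 3 settings were chosen after seeing the data. Without D230, D242 and D244, which were high in sustentacular genes, the site genes had 0.36 there. Without D357, Ebf1, Ebf2 and Ebf3 were in 100% of Early Immature Neuron cells. Without the 9 cells high in S100a8 and S100a9, Ebf4 had -0.19 (Precursor minus Progenitor) and a Progenitor mean of 0.40, Ebf1 and Ebf3 had r = 0.48 over all cells, the immature list had 0.87 and the mature list reversed to -0.094 (both Precursor minus Progenitor), and Ebf1 and Ebf3 were in 100% of Progenitor cells. Leaving out 1 cell at a time gave 0.36 to 0.63 for the site genes (Mature minus Late Immature Neuron), 96.2 to 100% for Ebf1, Ebf2 and Ebf3 in Early Immature Neuron cells, 95.8 to 100% for Ebf4 and for all 4 members in Mature Neuron cells, and 87.5 to 100% for Ebf1 in Precursor cells. The cause of each change was not tested. No paired analysis was possible because the cells carry no replicate numbers that link stages. Each stage is 1 sample, and Ebf4 values near 0 rest on few fragments.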
